A study of Astyanax mexicanus with 8 samples.

Results

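The DNA replication genes of spheroids from 2 lines of liver-derived cells of Astyanax mexicanus, the Mexican tetra, were compared between the lines and across seeding densities. They were found by name: the rule takes gene names that begin with mcm, orc, gins, rfc, rpa, pola, pold, pole or prim and a digit or with ccne, and 18 further single names (pcna, rrm1, rrm2, tyms, dhfr, cdc6, cdc45, cdt1, gmnn, fen1, lig1, dut, cdk2, ccna2, uhrf1, dnmt1, chaf1a and chaf1b). It found 58 of the 27420 listed genes; chaf1a was the 1 single name with no row. SFL is the line from surface fish and CFL the line from cave fish, whose sample titles read Pachon; both are labelled wild type (WT). Each was grown for 28 days at 27 °C as free-floating spheroids in low-attachment wells seeded with 10000, 25000, 50000 or 100000 cells, and 1 library was made per line and density, 8 in all. With 1 line per form of the fish and no replicate at any density, every comparison is of these lines and libraries, and the labels do not say how many wells went into a library.

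Chromosomal replication starts where the origin recognition complex (ORC), Cdc6 and Cdt1 load the Mcm2 to Mcm7 helicase onto DNA in G1, a step called licensing. Cyclin-dependent kinases then let Cdc45 and the GINS complex switch the helicase on, DNA polymerase alpha with primase lays down primers, and polymerases delta and epsilon extend them on the sliding clamp PCNA, which replication factor C (RFC) loads. Most of these genes are transcribed around the G1 to S transition under E2F factors, so in bulk RNA their levels can follow how many cells are cycling. The share of cycling cells was not measured here, and fewer cycling cells and less RNA per cycling cell cannot be told apart.

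Values are TPM (a transcript level scaled to transcript length and to the library's total) as the authors deposited them, so levels of different genes may be set side by side. Between 17819 and 19408 genes were above 0 in a library, and the depth behind the values is unknown. Markers of hepatocytes were sparse for lines from liver. Of 20 listed, 18 had a row and 6 of these a mean of at least 1 TPM. The 18 summed to 303 to 382 TPM in SFL, most of it rbp4, and to 6.62 to 16.5 TPM in CFL, and foxa2 and ttr were listed at 0 in all 8 libraries. The 10 mesenchymal markers with a row summed to 562 to 668 TPM in SFL and 184 to 315 in CFL, and the 8 leukocyte rows to 1.39 to 3.07 TPM over all libraries. The 6 endothelial rows summed to 48.6 to 90.8 and 15.0 to 30.0 TPM, and the 5 biliary rows to 2357 to 3276 and 408 to 574 TPM. Hepatocyte, mesenchymal, endothelial and biliary sums were lower in every CFL library than in any SFL library, but few rows carry them. krt18a.1 (2158 to 3057 TPM in SFL) carries the biliary and kdrl the endothelial. tagln and col1a2 carry most of the mesenchymal, joined in SFL only by acta2 (94.1 to 103 TPM in SFL, 0.17 to 0.45 in CFL). Other rows were higher in CFL, among them sox9a (0.96 to 2.08 TPM in SFL, 22.6 to 31.8 in CFL), pdgfra (0.06 to 0.25 and 5.66 to 20.4) and pdgfrb (0.22 to 1.16 and 2.62 to 10.6). Their part in the line difference below was not tested.

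Of the 58 genes, 55 had a mean of at least 1 TPM over the 8 libraries and were tested. mcm3l, mcm6l and orc6 did not. The 55 had mean levels from 1.18 TPM (mcm9) to 72.4 TPM (pcna). Together the 58 summed to 755, 876, 571 and 495 TPM in SFL and to 996, 1116, 823 and 792 TPM in CFL at 10000, 25000, 50000 and 100000 cells, an order in which all sets of 4 values are given. In each line the sum was highest at 25000 cells and lowest at 100000, and at every density it was higher in CFL.

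**Figure D1:**
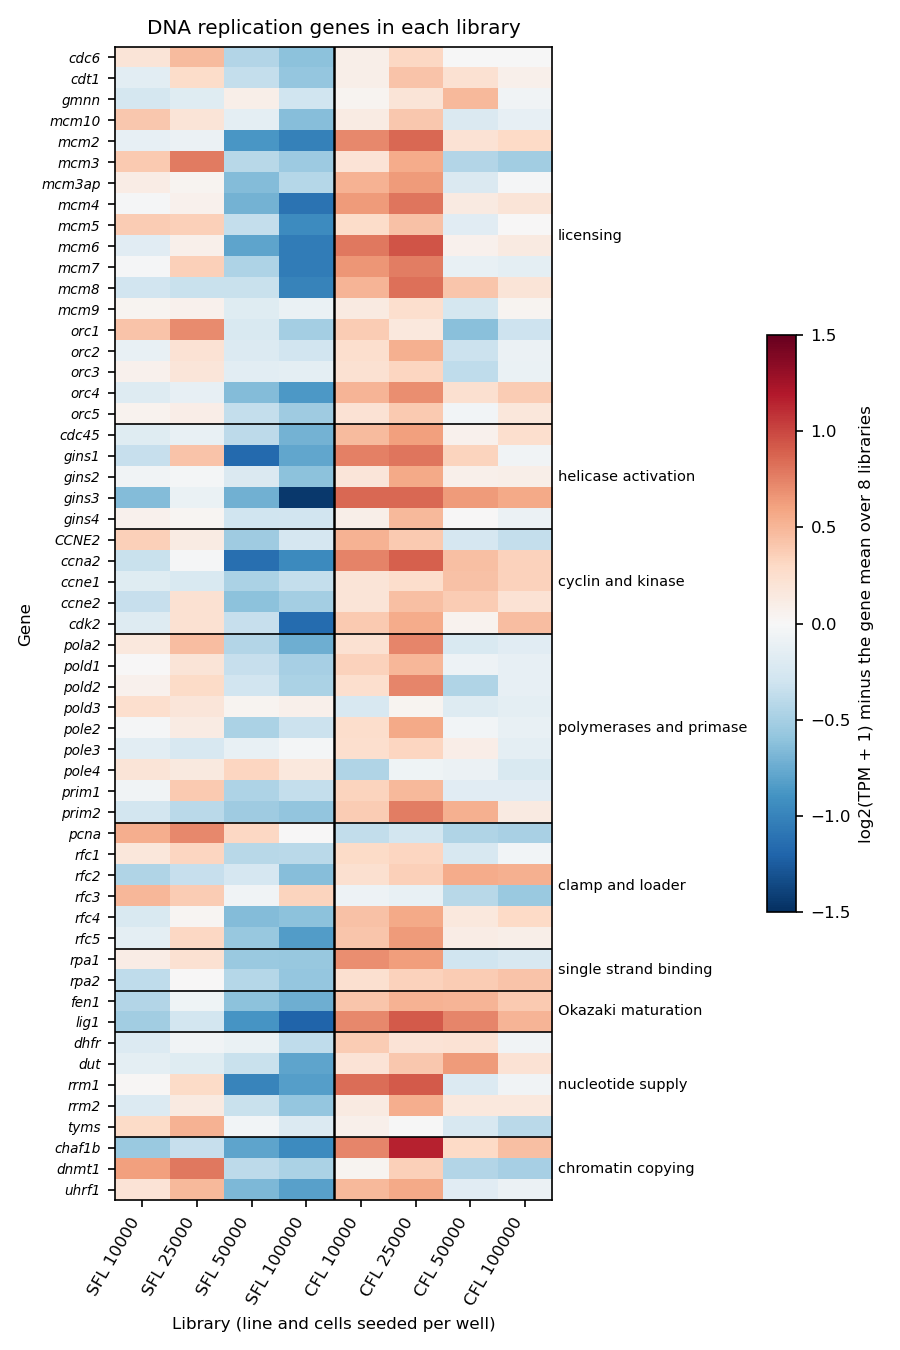
Level of the 55 tested replication genes (rows, grouped by role) in each of the 8 libraries (columns), as log2(TPM + 1) minus the gene's mean over the 8 libraries; red is above and blue below that mean. Most rows are red in CFL at 10000 and 25000 cells and blue in SFL at 50000 and 100000, while pcna, rfc3 and pole4 are redder in SFL.

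The first comparison was between the lines. Most replication genes stood higher in CFL, by a median of 0.40 on the log2(TPM + 1) scale against -0.04 for all 13783 tested genes. A gene was called when its limma p-value, adjusted over all tested genes, was under 0.05. Of the 55, 26 were called higher in CFL and 3 lower, 47.3% and 5.45%, where 27.6% and 31.3% of all tested genes were called higher and lower. The count of 26 fell to 17 when SFL at 10000 or CFL at 25000 cells was left out. In these fits 3348 and 3339 of all 13783 tested genes were called higher, against 3809 with all libraries. The count was 31 (background 31.3%) after median-of-ratios scaling, which removes a shift common to most genes. It was 29 (background 33.1%) with quantile normalization. With either, 2 were called lower (background 31.8% and 31.1%). With libraries paired by density, 35 were called higher and 5 lower (background 33.5% and 37.7%). Without any model, all 4 CFL libraries lay above all 4 SFL libraries for 17 of the 55 (22.2% of all tested genes) and below for 4 (26.8% of all tested genes). CFL was higher at all 4 densities in 38 of the 55, against 35.8% of all tested genes.

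**Figure D2:**
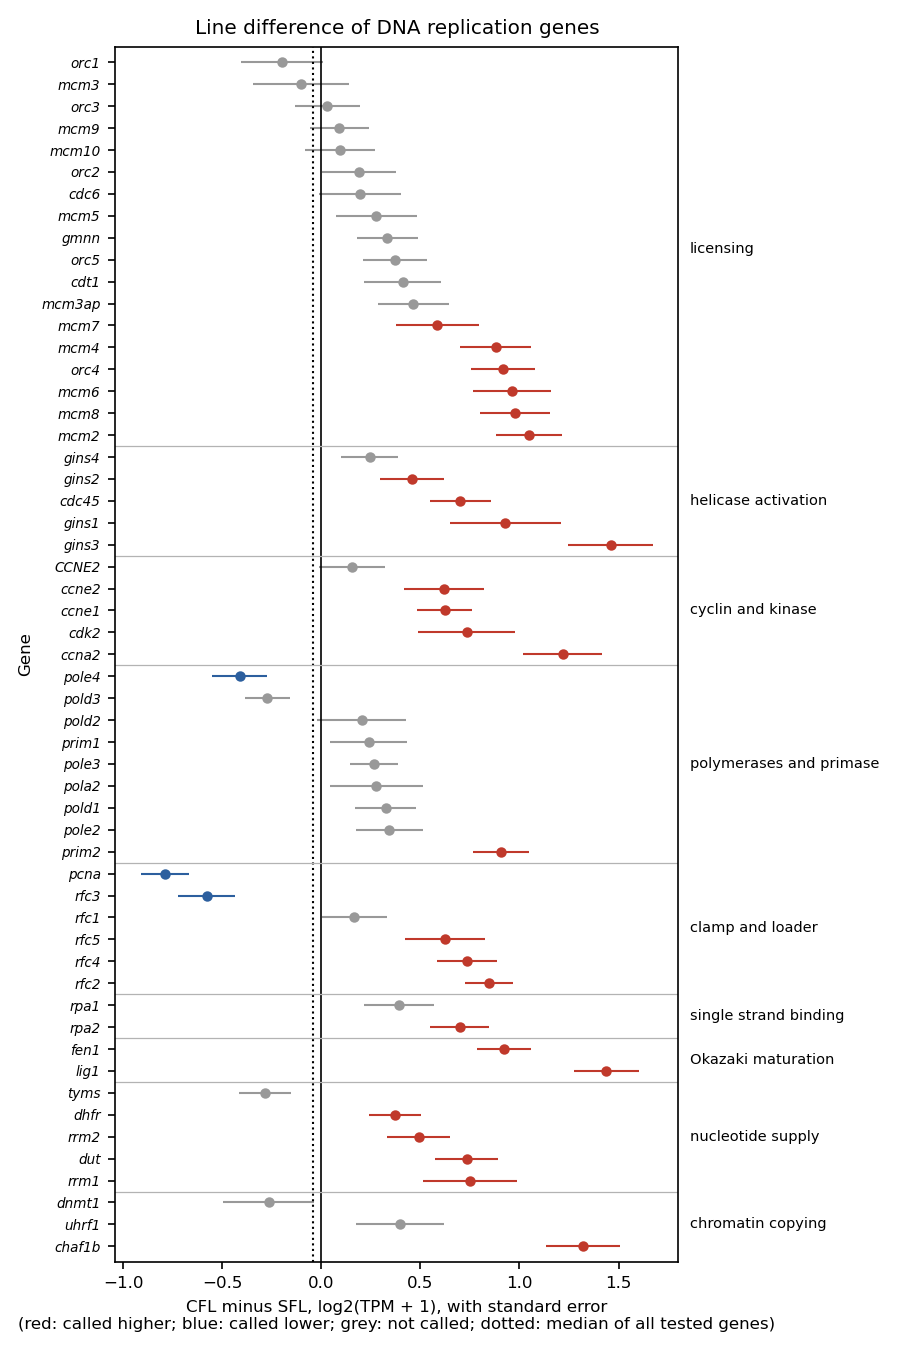
Difference between the lines (CFL minus SFL, horizontal axis, log2(TPM + 1), with its standard error) for the 55 tested replication genes, grouped by role; red genes were called higher in CFL, blue lower, and grey were not called. The 26 red points lie right of the dotted median of all tested genes at -0.04, and the 3 blue points are pcna, rfc3 and pole4.

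Of the 18 tested genes of the licensing group, 6 were called higher in CFL and 0 lower. Of all tested genes 27.6% were called higher and 31.3% lower, so the higher count is near the background and the lower count is below it. mcm2, a subunit of the helicase ring, stood at 15.0, 15.3, 8.46 and 7.61 TPM in SFL and at 27.6, 30.7, 19.2 and 20.3 TPM in CFL. All CFL libraries lay above all SFL libraries, and the difference was 1.05 (SE 0.17, limma adjusted p = 0.000743). mcm7, the most abundant ring subunit in every library, stood at 34.9, 45.6, 25.4 and 16.5 TPM in SFL and at 56.8, 61.0, 32.6 and 31.7 TPM in CFL. The lines overlapped, since the 2 larger CFL densities were below SFL at 10000 cells; the difference of 0.59 (SE 0.21, limma adjusted p = 0.0391) lost its call when any of 6 single libraries was left out. mcm4 and mcm6 were also called higher in CFL, by 0.88 and 0.96. The other 2 ring subunits were not called. mcm3 averaged 19.8 ± 9.06 TPM in SFL and 17.9 ± 6.84 TPM in CFL (SD over the 4 densities, n = 4), and mcm5 15.3 ± 6.49 and 17.7 ± 3.54 TPM. The lowest subunit of the ring was mcm6 in every SFL library, and mcm5 or mcm3 in CFL.

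Among the origin recognition genes, orc4 was called higher in CFL (3.88 ± 1.17 TPM in SFL, 8.07 ± 1.25 TPM in CFL, SD, n = 4; difference 0.92, SE 0.16, limma adjusted p = 0.00129). orc1, orc2, orc3 and orc5 had differences from -0.20 to 0.37 and were not called as deposited; orc5 was called higher after median-of-ratios scaling (0.41) and with libraries paired by density. The loaders cdc6 and cdt1 and their inhibitor gmnn (geminin, which binds Cdt1) were not called as deposited either, with differences of 0.19, 0.41 and 0.33; pairing by density called cdt1 and gmnn higher. mcm3ap, which the rule takes by its name although its protein acts in mRNA export, had a difference of 0.46 (SE 0.18, limma adjusted p = 0.0535) and was called after both other scalings. The remaining called gene was mcm8, a relative of the ring subunits that acts in homologous recombination, which averaged 1.70 ± 0.57 TPM in SFL against 4.27 ± 0.99 in CFL (SD, n = 4; difference 0.98).

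Helicase activation had 4 of its 5 genes called higher in CFL and 0 lower (background 27.6% and 31.3%). gins3, a GINS subunit, stood at 8.0, 12.2, 7.53 and 4.19 TPM in SFL and at 24.7, 24.5, 20.9 and 19.9 TPM in CFL. Its lowest CFL library was above its highest SFL library (difference 1.46, SE 0.21, limma adjusted p = 0.000464). gins1, gins2 and cdc45 were called with differences of 0.93, 0.46 and 0.70. gins4 averaged 9.48 ± 1.43 TPM in SFL against 11.5 ± 2.31 in CFL (SD, n = 4) and was not called. gins3 was the most abundant GINS subunit in all 4 CFL libraries, and in SFL gins4 or gins1 was.

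The sliding clamp went the other way from most of the genes that work with it. pcna stood at 101, 114, 85.8 and 69.2 TPM in SFL and at 53.1, 56.7, 50.3 and 49.1 TPM in CFL. Every CFL library lay below every SFL library, and the difference was -0.79 (SE 0.12, limma adjusted p = 0.000663). pcna was the most abundant replication gene in each SFL library, where rrm1 or fen1 came next at 48.2, 58.8, 39.8 and 36.7 TPM; in CFL the most abundant was rrm1 at 10000 and 25000 cells and fen1 at 50000 and 100000. Within the clamp loader, rfc2, rfc4 and rfc5 were called higher in CFL and rfc3 lower (background 27.6% and 31.3%). rfc2 stood at 22.0, 23.9, 25.5 and 19.3 TPM in SFL and at 36.1, 39.6, 45.4 and 44.7 TPM in CFL, with no overlap (difference 0.84, SE 0.12, limma adjusted p = 0.000415). rfc3 stood at 9.94, 9.07, 6.43 and 8.74 TPM in SFL and at 6.35, 6.17, 4.79 and 4.27 TPM in CFL, also with no overlap and in the other direction (difference -0.58, SE 0.14, limma adjusted p = 0.00846). rfc1, the large subunit, was at 8.75 ± 2.57 and 9.78 ± 1.97 TPM (SD, n = 4) and was not called. The directions of pcna, rfc2 and rfc3 held, with their calls, when the libraries were rescaled by median of ratios (-0.74, 0.89 and -0.54) or quantile-normalized (-0.62, 0.99 and -0.59).

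**Figure D3:**
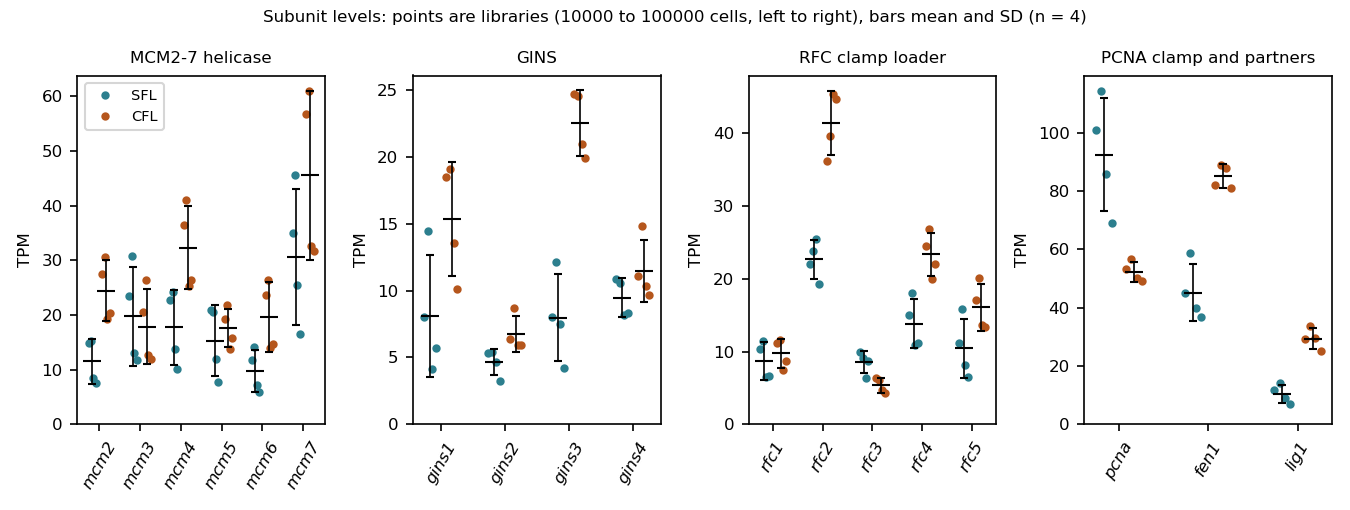
TPM of the subunits of the Mcm2 to Mcm7 ring, GINS, RFC and of pcna with fen1 and lig1; each point is a library (SFL teal, CFL orange, densities rising from left to right) and bars are the mean and SD over the 4 densities of a line. pcna and rfc3 lie higher in SFL, gins3, rfc2, fen1 and lig1 lie higher in CFL with no overlap, and mcm3, mcm5 and rfc1 overlap.

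fen1, the nuclease that trims the flap of an Okazaki fragment on PCNA, stood at 45.2, 58.8, 39.8 and 36.7 TPM in SFL and at 82.0, 89.0, 88.0 and 80.9 TPM in CFL. lig1, the ligase that seals the nick, stood at 11.9, 14.2, 8.93 and 7.02 TPM in SFL and at 29.2, 33.7, 29.6 and 25.2 TPM in CFL. Both lay higher in every CFL library than in any SFL library, by 0.92 (SE 0.14, limma adjusted p = 0.000497) and 1.44 (SE 0.16, limma adjusted p = 0.000104). Of the 2 listed subunits of the single-strand binding protein RPA, rpa2 was called higher in CFL. It stood at 6.32, 8.57, 6.09 and 5.37 TPM in SFL and at 10.3, 11.2, 11.4 and 11.9 TPM in CFL (difference 0.70, SE 0.15, limma adjusted p = 0.00402). rpa1, the large subunit, stood at 14.6, 16.0, 8.80 and 8.78 TPM in SFL and at 22.5, 21.4, 10.8 and 11.2 TPM in CFL; it overlapped and was not called as deposited (0.39), but was called after both other scalings (0.43 and 0.48) and with libraries paired by density.

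Of the 9 genes of the polymerase and primase group, 1 was called higher in CFL and 1 lower (background 27.6% and 31.3%). prim2, the large primase subunit, stood at 9.90, 8.94, 8.10 and 7.73 TPM in SFL and at 16.1, 21.5, 18.02 and 13.5 TPM in CFL, with no overlap (difference 0.91, SE 0.14, limma adjusted p = 0.000658). Its partner prim1, the catalytic subunit, was at 7.71 ± 2.46 and 9.19 ± 2.38 TPM (SD, n = 4) and was not called. pole4, a small histone-fold subunit of polymerase epsilon, stood at 3.74, 3.58, 4.21 and 3.65 TPM in SFL and at 2.04, 2.98, 2.91 and 2.55 TPM in CFL. Its difference of -0.41 (SE 0.14, limma adjusted p = 0.0315) was not called after either other scaling or when any of 5 single libraries was left out. pole3, the histone-fold partner of pole4, was the most abundant of the group, with 24.4, 23.0, 25.2 and 26.8 TPM in the SFL libraries and 32.8, 34.4, 29.4 and 24.5 in those of CFL. It was not called as deposited (0.27), and was called higher with quantile normalization (0.41). pola2, pold1, pold2, pold3 and pole2 had differences from -0.27 to 0.34 and none was called as deposited. With libraries paired by density, pola2, pold1 and pole2 were called higher and pold3 lower, and after median-of-ratios scaling pold1 and pole2 were called higher.

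Nucleotide supply had 4 of 5 genes called higher in CFL and 0 lower (background 27.6% and 31.3%). rrm1, the large subunit of ribonucleotide reductase, which makes deoxynucleotides, stood at 48.2, 58.2, 23.5 and 26.5 TPM in SFL and at 85.8, 91.1, 41.1 and 45.6 TPM in CFL. CFL was higher at every density but the lines overlapped, and the difference of 0.75 (SE 0.24, limma adjusted p = 0.0244) lost its call when any of 4 single libraries was left out. rrm2, its small subunit, dut, which removes dUTP, and dhfr, which regenerates tetrahydrofolate, were called with differences of 0.49, 0.73 and 0.37. The dhfr call was lost after both other scalings (limma adjusted p = 0.0552 and 0.132). tyms, which makes thymidylate, averaged 14.98 ± 3.61 TPM in SFL against 11.99 ± 1.92 in CFL (SD, n = 4). It was lower in CFL at every density (-0.28), and was called with libraries paired by density but not as deposited or after either other scaling.

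Of the 5 cyclin and kinase genes, 4 were called higher in CFL and 0 lower (background 27.6% and 31.3%). ccna2, cyclin A2, which partners Cdk2 in S phase, stood at 9.96, 12.7, 5.35 and 6.14 TPM in SFL and at 22.3, 24.8, 17.9 and 16.6 TPM in CFL, with no overlap (difference 1.22, SE 0.20, limma adjusted p = 0.000933). cdk2 itself and ccne1, a G1 to S cyclin, were called with differences of 0.73 and 0.62. The name of cyclin E2 is on 2 rows, ccne2 and CCNE2. Whether they are separate genes or parts of the same gene could not be settled here, and the authors' counting may have divided reads between them. ccne2 stood at 1.39, 2.55, 0.98 and 1.12 TPM in SFL and at 2.46, 3.14, 2.96 and 2.51 TPM in CFL, a difference of 0.62 (SE 0.20, limma adjusted p = 0.0274) that lost its call when any of 6 single libraries was left out. CCNE2 stood at 3.10, 2.51, 1.22 and 1.69 TPM in SFL and at 3.62, 3.22, 1.70 and 1.51 TPM in CFL and was not called (0.16, SE 0.17).

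In the chromatin group, chaf1b, a subunit of the histone chaperone CAF-1, stood at 3.73, 4.45, 3.03 and 2.60 TPM in SFL and at 10.6, 14.5, 7.58 and 8.51 TPM in CFL. It was higher in every CFL library (difference 1.32, SE 0.19, limma adjusted p = 0.000383). The pair that copies DNA methylation was not called: dnmt1, the maintenance methyltransferase, had a difference of -0.27 and uhrf1, which recruits it, of 0.40. dnmt1 was lower in CFL at all 4 densities and uhrf1 higher at all 4; uhrf1 was called after both other scalings and with libraries paired by density.

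Other S phase regulators that are not among the 58 genes were counted from a list of 68 names, of which 54 rows were found and 48 tested. Of these, 21 were called higher in CFL (43.8%) and 6 lower (12.5%), with a median of 0.46, where 27.6% and 31.3% of all tested genes were called and the median was -0.04. The 3 highest called differences were those of top2a, topoisomerase II alpha (6.93 TPM in SFL, 57.4 TPM in CFL, difference 2.92), ccnd2a, a cyclin D2 (12.4 and 70.8 TPM, 2.39), and mtbp, which acts with the origin firing factor Ticrr (0.50 and 3.30 TPM, 1.51). The lowest were those of cdkn1bb, a p27-type inhibitor of cyclin-dependent kinases (7.65 and 2.59 TPM, -1.29), tfdp1a, an E2F dimer partner (45.9 and 22.1 TPM, -1.03), and dscc1, a subunit of an alternative loader of PCNA (7.71 and 4.21 TPM, -0.74). The other p27-type row, cdkn1ba, was more abundant than cdkn1bb and was called the other way, higher in CFL (15.9 and 26.4 TPM, 0.71).

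The second comparison was between large seeding (50000 and 100000 cells) and small seeding (10000 and 25000), with 2 libraries per class and line. Replication genes were lower at large seeding, by a median of -0.45 on the log2(TPM + 1) scale where the median of all tested genes was -0.30. Of the 55, 36 were called lower (65.5%) and 0 higher, against 46.2% and 3.48% of all tested genes; in the higher direction 0 of the 55 had an unadjusted p under 0.05, against 4.82% of all tested genes. Both large-seeding libraries lay below both small ones in each line for 38 of the 55 (47.1% of all tested genes). The scaling sets much of this count. Median-of-ratios scaling took the all-gene median from -0.30 to 0.04, and 11 were then called lower and 4 higher (background 22.2% and 24.7%). With quantile normalization, 9 were called lower and 5 higher (background 21.2% and 23.6%). Relative to the median of all genes, the median of the 55 was -0.15 as deposited and -0.13 and -0.08 under these scalings in turn. Ribosomal protein genes, matched by name, held 16.3% to 20.3% of all TPM in the small-seeding libraries and 19.4% to 26.1% in the large; their part in the fall as deposited was not tested.

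Called lower at large seeding as deposited and under both other scalings were 8 genes: rrm1, rpa1, mcm2, mcm3, mcm6, mcm7, dnmt1 and uhrf1. The share of all tested genes called lower in every one of these settings was not counted, so the 8 cannot be set against a background. Under the other scalings, 20% and 16.4% of the 55 were called lower, against 22.2% and 21.2% of all tested genes. The lowest change was that of rrm1, whose values are given above: its highest large-seeding library was below its lowest small-seeding library in each line, and its change was -1.03 (SE 0.09, limma adjusted p = 0.00102) as deposited and -0.62 and -0.73 under the other scalings. mcm3 stood at 23.5, 30.9, 13.0 and 11.8 TPM in SFL and at 20.5, 26.3, 12.7 and 11.96 TPM in CFL. The classes did not overlap within or between the lines, and the change was -0.96 (SE 0.12, limma adjusted p = 0.00117). dnmt1 stood at 20.1, 22.9, 9.49 and 8.91 TPM in SFL and at 13.2, 16.7, 9.20 and 8.74 TPM in CFL (-0.90, SE 0.11, limma adjusted p = 0.00103). uhrf1 stood at 11.5, 14.3, 5.80 and 5.19 TPM in SFL and at 14.2, 15.2, 8.64 and 9.21 TPM in CFL (-0.87, SE 0.11, limma adjusted p = 0.0011). For both, the classes did not overlap within a line. mcm7 changed by -0.89 (SE 0.14, limma adjusted p = 0.00209).

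Other genes were called higher only after rescaling, and for some of them the sign turned. rfc2 had an estimate of 0.10 as deposited and was not called, but was called higher by 0.51 and 0.44 under the other scalings. pole4 (0.09 as deposited, 0.41 and 0.56) was likewise called higher after both. pold3 (-0.11, 0.27 and 0.31), a polymerase delta subunit, turned from below to above 0 and was called higher after both. pole3 (-0.09, 0.31 and 0.25) turned too and was called higher after median-of-ratios scaling. With quantile normalization ccne1 (-0.02 as deposited, 0.44) and gmnn (0.11, 0.51) were called higher. pcna was called lower as deposited (-0.31, SE 0.09, limma adjusted p = 0.0228), a call lost when any of 4 single libraries was left out; it stood at 0.11 and -0.04 under them, and was called in neither. Of the 55 tested replication genes, 50 had a genomic span in RefSeq (AstMex3_surface, matched by symbol). The 25 with a span of at most 8817 bases had a median change of -0.44 as deposited and the 25 longer ones of -0.52. Of all tested genes, only 67.6% could be given a span. Among these, the median change was -0.09 for the 2588 of at most 8817 bases and -0.41 for the 6735 longer ones. The rank correlation of span with the change was -0.43 over these genes and -0.23 over the 50 replication genes. Genes without a span are left out, and the part of span in the fall was not tested.

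**Figure D4:**
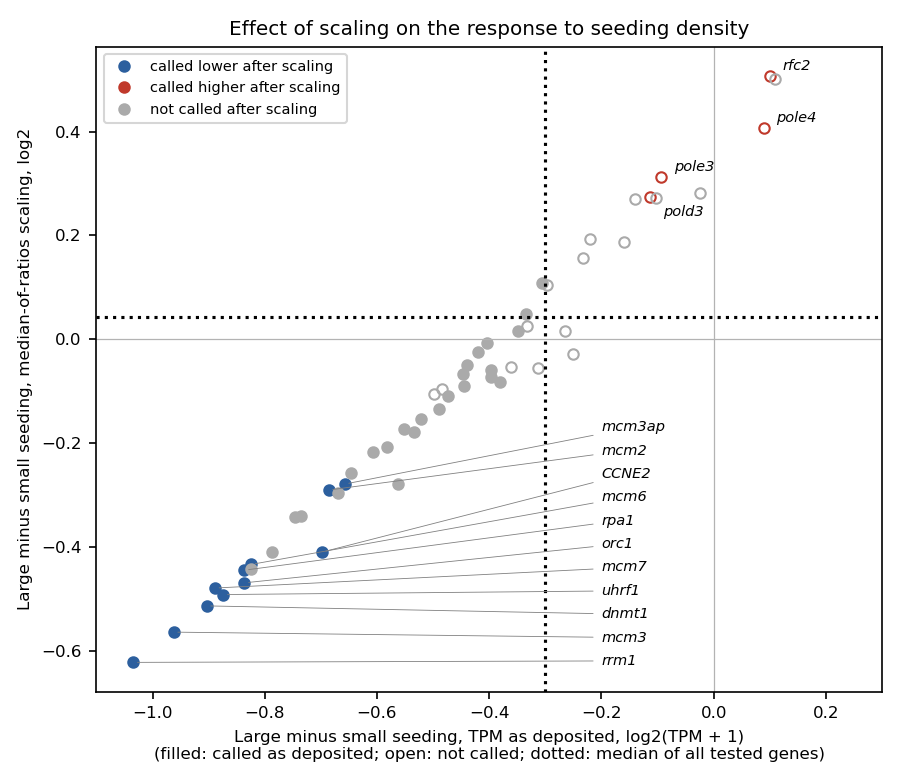
Change from small to large seeding of the 55 tested replication genes, with TPM as deposited on the horizontal axis and after median-of-ratios scaling on the vertical axis (both log2); filled points were called as deposited and named points after scaling, and dotted lines mark the median of all tested genes (-0.30 and 0.04). The points run along a band from rrm1 at the lower left to rfc2 at the upper right, and the number below 0 shrinks after scaling.

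By role, licensing had 14 of 18 tested genes called lower at large seeding as deposited, chromatin copying 3 of 3, clamp and loader 5 of 6, polymerases and primase 5 of 9, helicase activation 3 of 5, nucleotide supply 2 of 5, cyclin and kinase 2 of 5, single-strand binding 1 of 2 and Okazaki maturation 1 of 2. Against the 46.2% of all tested genes, the last 6 of these shares are near the background, and all roles together kept 11 and 9 lower calls under the other scalings. Partners within a complex had unequal estimates: rpa1 was called with -0.84 (SE 0.09) while rpa2 had -0.10 (SE 0.12) and was not called, and rrm1 was called with -1.03 while rrm2 had -0.30 (SE 0.13) and was not. After median-of-ratios scaling and quantile normalization, rpa2 stood at 0.27 and 0.36 and rrm2 at 0.10 and 0.07. The differences between partners were not tested. Of the list of other S phase regulators, 25 of 48 tested were called lower (52.1%) and 0 higher, with a median of -0.36, close to the 46.2% and -0.30 of all tested genes.

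The third question was how the genes moved from density to density. Replication genes stood highest at 25000 cells. In SFL 40 of the 55 had their highest value there and in CFL 43, where 31% and 36.4% of all tested genes did. From 10000 to 25000 cells, 42 of the 55 were higher in SFL and 48 in CFL, with medians of 0.18 and 0.15 against -0.03 and 0.00046 for all tested genes. In 37 of the 55 the value was higher in both lines, against 20.9% of all tested genes; of the other S phase regulators this held for 20 of 48 (41.7%). Each density is 1 library per line, and single genes did not pass: in a limma fit with density as a factor 0 of the 55 and 0 of all 13783 genes were called between 10000 and 25000 cells, and 3 of the 55 had an unadjusted p under 0.05 in the higher direction, where 1.09% of all tested genes did (mcm3, rrm2 and pola2, named after their values were seen). Yet 53 of the 55 estimates lay above the median of all genes, as deposited and after both other scalings. These estimates share libraries, so 53 is not a count of independent observations.

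At 50000 cells the median change from 10000 cells was -0.37 in SFL and -0.31 in CFL, close to those of all tested genes (-0.36 and -0.38). At 100000 cells it was -0.54 in SFL and -0.32 in CFL, against -0.26 and -0.23 for all genes. Between 50000 and 100000 cells the median change of the replication genes over both lines was -0.07 where that of all genes was 0.15, and 4 of the 55 estimates lay above the median of all genes (3 after either other scaling). No gene of the 55 was called in limma for this step and 3 had an unadjusted p under 0.05, gmnn, mcm8 and dut, all lower at 100000 cells, where 0.965% of all tested genes did. gmnn stood at 11.0, 11.7, 14.3 and 10.7 TPM in SFL and at 13.8, 15.5, 19.2 and 13.0 TPM in CFL, and so was highest at 50000 cells in both lines. As a single slope on log2(density), which this profile does not follow, 0 of the 55 and 0 of all genes were called by limma, and 20 of the 55 had a slope below 0 with an unadjusted p under 0.05 (33.3% of all tested genes).

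**Figure D5:**
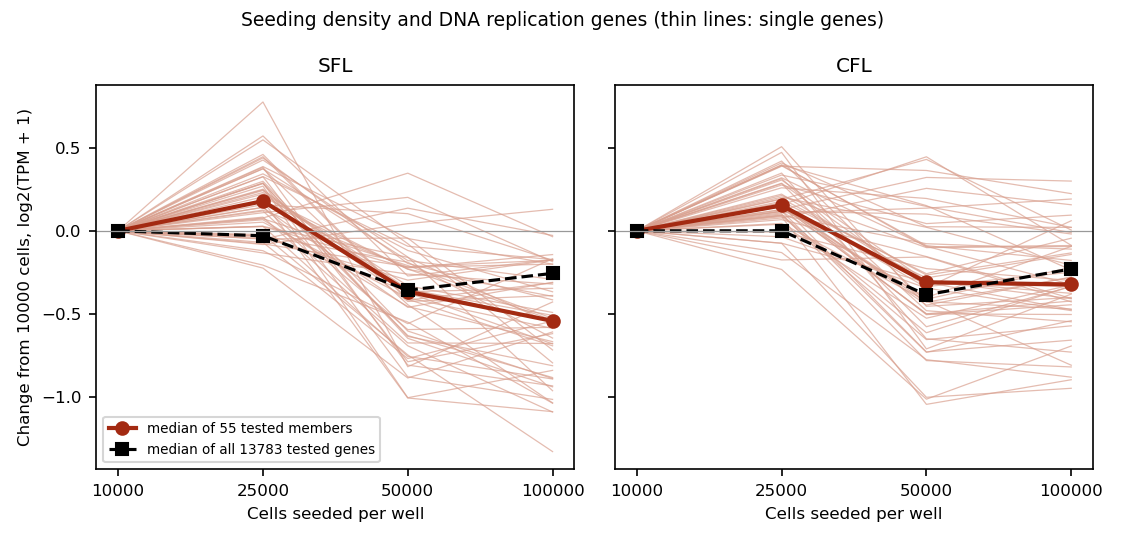
Change from 10000 cells in log2(TPM + 1) (vertical axis) at each seeding density (horizontal axis) in SFL and CFL; thin lines are the 55 tested replication genes, circles their median and squares the median of all tested genes. In both lines the replication genes lie above all genes at 25000 cells (0.18 and 0.15), are close to them at 50000 and lie below them at 100000 (-0.54 and -0.32).

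Line by line, the replication genes changed from small to large seeding by a median of -0.53 in SFL and -0.39 in CFL, against -0.29 and -0.31 for all tested genes. In SFL 27 of the 55 were called lower (background 25.8%) and in CFL 21 (background 34%), and 0 were called higher in either (background 1.15% and 2.43%). These counts rest on few libraries, and leaving out 1 leaves a lone library in its class, so only medians are given for that. Without SFL at 10000, 25000, 50000 or 100000 cells the SFL median was -0.61, -0.42, -0.61 and -0.45. That of all tested genes was -0.26, -0.31, -0.24 and -0.33. Without CFL at the same densities the CFL median was -0.49, -0.32, -0.39 and -0.42, against -0.33, -0.30, -0.24 and -0.39 for all tested genes. Median-of-ratios scaling left 5 lower in SFL (background 9.66%) and 0 higher (9.37%), and quantile normalization 3 lower (7.54%) and 0 higher (5.8%). In CFL they left 2 lower each (background 16.1% and 15.9%), with 2 and 3 higher (17.2% and 15.6%). Whether the lines responded unequally was tested with the interaction of line and seeding class, for which limma called 0 of the 55 and 0 of all 13783 genes. The median interaction of the 55 was 0.20 against -0.03 for all tested genes, and 43 of the 55 lay above the latter. That gap of 0.23 ran from 0.07 to 0.38 when single libraries were left out. These estimates share libraries, and the gap itself was not tested. Of the 55, 1 had an unadjusted p under 0.05 above 0 and 1 below (3.21% and 5.01% of all tested genes): cdc6, which stood at 6.30, 7.89, 3.70 and 3.16 TPM in SFL and at 5.81, 6.89, 5.35 and 5.38 TPM in CFL (interaction 0.66, unadjusted p = 0.0241, adjusted 0.506), and pole3 (interaction -0.44, unadjusted p = 0.0352, adjusted 0.551). The median difference between the lines was 0.36, 0.38, 0.41 and 0.70 at the 4 densities, highest at 100000 cells, while that of all tested genes was between -0.10 and -0.01.

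The 3 genes below the test's filter had their own patterns. orc6, the smallest ORC subunit, was at 0.47, 0.35, 1.37 and 1.3 TPM in SFL and at 0.31, 0.18, 0.17 and 0.31 TPM in CFL; it was singled out after its values were seen. It was higher at large seeding in SFL, opposite to the other ORC genes. In CFL it averaged 0.245 TPM at small and 0.24 TPM at large seeding. Without the filter it was called higher for the mean of both lines (0.36, SE 0.07, limma adjusted p = 0.013), a change that SFL carries. mcm6l was listed at 0 in every CFL library and at 0.04 TPM or less in SFL. mcm3l reached at most 0.12 TPM and was listed at 0 in 5 of the 8 libraries.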

How the data were processed

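Stranded polyadenylated libraries were read as single reads of 75 bases, per the labels. TPM values per gene are the authors' own, deposited in 1 table; STAR 2.7.3a and RSEM 1.3.0 are named in the submitters' processing notes, while the genome build, annotation and strand setting are not given in the sources used here. All 8 value columns matched 1 sample title each and 0 were left unmapped. TPM keeps no depth, so counting error is unknown here.

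Values were taken as log2(TPM + 1); genes with a mean of at least 1 TPM were tested (13783, 55 of them replication genes). limma 3.58.1 in R 4.3.3 (lmFit, eBayes with trend) was fitted to all 8 libraries, with Benjamini-Hochberg adjustment over all tested genes and a threshold of 0.05. The line difference had line and log2(density) as terms. Seeding classes were fitted as 4 means of line by class; single densities were contrasted in a fit with density as a factor, added after the data were seen. Fold changes on this scale understate low genes. P-values measure the spread between libraries of different or neighbouring densities, since no density was replicated. On simulated data with the real means, 200 of 13783 genes were given a line difference of 1 or a class change of -1. Of these, 82% and 77.5% were recovered, and 4.65% and 6.63% of calls were false. In the real data, each tested replication gene had a larger SE for the line difference than for the class change (rrm1, 0.24 and 0.09). Recovery of line differences at these SEs, or with as many genes changed as were called, was not tested.

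The members, role groups, lists, seeding classes and tests were chosen with earlier results of these data known. Named genes were, per role, the most abundant gene and that with the largest line difference; the 5 largest called rises and falls between lines; the 5 largest called changes with seeding; genes listed at 0 in a line; genes sharing a name; and the 3 largest called differences each way in the S phase list. Pairing by density comes from the seeding number in the titles; across genes, the departures of an SFL and a CFL library of equal density from their own line's mean had correlations of 0.51, 0.49, 0.64 and 0.31. At small seeding, libraries of unequal density correlated about as well (0.52 and 0.48). At large seeding they stood at 0.38 and 0.39, below the 0.64 of the pair at 50000 cells and above the 0.31 at 100000. Apart from the pair at 50000 cells, these values are therefore not particular to equal density. Alternatives were median-of-ratios scaling, quantile normalization, a pseudocount of 0.1, a filter at 5 TPM or none, the density block, and leaving out each library.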

Additional observations from a re-analysis of the deposited data

How the results depend on the processing

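Between the lines, 26 replication genes were called higher and 3 lower. The higher count ran from 17 to 27 and the lower from 2 to 3 when single libraries were left out. Of all 13783 tested genes, 3234 to 4304 were called higher and 3784 to 4504 lower in these fits. Under the other planned settings the higher count was 21 to 35, but the number tested differed. The 21 was of 43 tested with a filter at 5 TPM (2586 of all 9564 genes). Without a filter, 23 of 58 were called higher (4915 of all 22830 genes). With density as a replicate block (paired libraries), 35 were higher and 5 lower (background 33.5% and 37.7%). For large against small seeding in both lines, 36 were called lower (background 46.2%). Leaving out single libraries gave medians from -0.51 to -0.38, where those of all tested genes ran from -0.34 to -0.26. Median-of-ratios scaling gave 11 lower and 4 higher (background 22.2% and 24.7%), and quantile normalization 9 and 5 (background 21.2% and 23.6%). With no filter, 32 of 58 were lower and 1 higher (orc6), where 6302 and 463 of all 22830 genes were. The log2(density) slope gave 0 lower, and 0 of all tested genes. The block moved no other count by over 1.5 times. In SFL alone the 27 lower calls became 5 after median-of-ratios scaling, 3 after quantile normalization and 16 without a filter, which also gave 1 higher. That unfiltered fit tested 58 replication genes, and of all 22830 genes it called 1839 lower and 104 higher. With the filter at 1 TPM, 3557 of all 13783 genes were called lower and 159 higher. The SFL median ran from -0.61 to -0.42 when single SFL libraries were left out, and that of all tested genes from -0.33 to -0.24. In CFL alone the 21 became 2 after either scaling, with 2 and 3 higher. It was 19 with a pseudocount of 0.1, where 4289 of all 13783 genes were called lower, against 4691 in the main fit. The CFL median ran from -0.49 to -0.32 when single CFL libraries were left out, and that of all tested genes from -0.39 to -0.24. The interaction stayed at 0 under every setting run for it. A lone library left in a class was assumed to vary like the others. The causes were not tested, except that scaling recentres all genes by construction.

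Directions turned for some of the genes picked by the naming rule above, and none of these was past the threshold in both directions. Genes outside that rule turned too with seeding after both other scalings, among them rrm2, dut, dhfr and gins4, and are not listed here. For large minus small seeding, values after median-of-ratios scaling and quantile normalization were 0.015 and 0.16 for ccne2, 0.19 and 0.053 for fen1, 0.31 and 0.25 for pole3, 0.16 and 0.18 for prim2, 0.016 and 0.12 for rfc3, and 0.27 and 0.36 for rpa2; pcna was at 0.11 after median-of-ratios scaling, and pole4 at -0.0081 without CFL at 10000 cells. The line difference of mcm3 was 0.0063 after quantile normalization, and ran from -0.27 to 0.10 when single libraries were left out, above 0 without SFL at 25000 (0.10) or CFL at 10000 (0.04). Depth is unknown, so no limit of detection can be given.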
